A study of Mus musculus with 63 samples.

Results

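The genes described here are 160 named pseudogenes measured in the dorsal hippocampus of DBA/2J and C57BL/6J mice, together with the parent genes they are named after. They were taken by name and level. The GENCODE M21 symbol ends in -ps or in -ps and digits, the gene type holds the word pseudogene, and the mean over the 63 libraries is at least 0.2 CPM (each count divided by its library total and multiplied by 1e+06). One pseudogene with such a name, Atp6v0c-ps2, was left out by the rule. The table of 55401 genes holds 1480 named pseudogenes, of which 768 have no count in any library, and 13517 pseudogenes of all kinds. A parent was found by symbol for 125 of the 160, by an older symbol in RefSeq for 10, and not at all for 25. The 135 pseudogenes with a parent belong to 123 parents.

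Groups were made of strain, sex, drug and conditioning. DBA/2J mice (32 libraries) and C57BL/6J mice (31 libraries), all adolescent and of 2 inbred strains, received ethanol at 1.5 g/kg (EtOH) or saline (SAL). They were either fear conditioned (FC) or held as controls without conditioning (noFC). Each of the 16 groups had 4 libraries, apart from C57BL/6J males with FC and SAL, which had 3. Males gave 31 libraries and females 32. No allele or transgene is named in the labels beyond the strain, and the labels do not say whether a library is 1 animal, so p-values measure the spread between these libraries. The counts of a library summed to between 21027659 and 61631742. Of 7 genes of dentate gyrus and CA fields, 6 were called lower in DBA/2J, where their summed level had a median of 1201 CPM against 1417 CPM in C57BL/6J. All 5 oligodendrocyte genes and 2 of 4 genes of the meninges were called lower in DBA/2J as well. Of 5 blood genes 3 rose and 1 fell in DBA/2J, with a median sum of 200 CPM in DBA/2J and 114 CPM in C57BL/6J. The 6 choroid plexus genes ran from 31.1 to 10770 CPM in DBA/2J and from 40.5 to 12019 CPM in C57BL/6J, and 23 libraries lay over 1000 CPM. Their part in the results below was not tested beyond a fit to the other 40 libraries. In bulk tissue, fewer cells of a type and less RNA per cell cannot be told apart.

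A processed pseudogene is a copy of a messenger RNA that was reverse transcribed and inserted elsewhere in the genome, without introns and usually without the promoter of its parent. Highly transcribed genes, above all those of ribosomal proteins, have left many such copies. An unprocessed pseudogene arose by duplication of the gene itself, a unitary pseudogene is a gene lost in the species, and a polymorphic pseudogene is intact in some strains and disabled in others. Because copies resemble their parents, a short read can match both, and the count given to each depends on how the aligner and counter place it. The mouse build GRCm38, against which the reads were counted per the submitters' processing notes, is the sequence of C57BL/6J. The setting used for reads that match several places is not given in the sources used here.

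The following 75-base stretches show how far apart a pseudogene and its parent can be. The length is that of 1 read, per the labels. Each stretch was taken from the GENCODE M21 transcripts (GRCm38) inside the parent's coding sequence. It is the place with the most differing bases among aligned stretches without inserted or missing bases. Capitals mark the bases that differ between the lines of a pair. They show the range from a copy with many differences to an identical one, among pairs described below.
Rps15a-ps8: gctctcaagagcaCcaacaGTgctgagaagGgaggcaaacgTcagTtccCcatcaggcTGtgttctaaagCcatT
Rps15a: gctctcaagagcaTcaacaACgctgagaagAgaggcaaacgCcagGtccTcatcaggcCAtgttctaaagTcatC
Rplp0-ps1: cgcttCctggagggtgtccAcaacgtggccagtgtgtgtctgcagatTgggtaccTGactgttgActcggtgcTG
Rplp0: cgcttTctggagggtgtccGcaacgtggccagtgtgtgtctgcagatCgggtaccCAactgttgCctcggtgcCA
Wsb2-ps: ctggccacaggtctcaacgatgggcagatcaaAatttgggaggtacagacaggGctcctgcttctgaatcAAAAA
Wsb2: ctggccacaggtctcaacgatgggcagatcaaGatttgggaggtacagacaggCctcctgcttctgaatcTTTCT
Rpsa-ps10: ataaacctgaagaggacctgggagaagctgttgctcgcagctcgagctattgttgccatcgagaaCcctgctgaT
Rpsa: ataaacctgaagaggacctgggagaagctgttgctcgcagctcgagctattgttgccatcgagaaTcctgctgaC
Rpl3-ps1: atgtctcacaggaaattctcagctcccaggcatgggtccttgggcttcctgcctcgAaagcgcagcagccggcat
Rpl3: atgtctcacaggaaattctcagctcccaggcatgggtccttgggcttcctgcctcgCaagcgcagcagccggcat
Rpl21-ps11: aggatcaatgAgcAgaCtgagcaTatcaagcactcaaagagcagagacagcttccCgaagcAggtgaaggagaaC
Rpl21: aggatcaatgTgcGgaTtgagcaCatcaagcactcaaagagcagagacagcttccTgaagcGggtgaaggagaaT
Ptges3-ps: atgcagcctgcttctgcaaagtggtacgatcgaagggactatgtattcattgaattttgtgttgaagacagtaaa
Ptges3: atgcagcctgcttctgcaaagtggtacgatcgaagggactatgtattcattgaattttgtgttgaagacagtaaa

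Rps15a-ps8 and Rps15a differed at 11 bases of the stretch, Rplp0-ps1 and Rplp0 at 8, and Wsb2-ps and Wsb2, like Rpl21-ps11 and Rpl21, at 7. Rpsa-ps10 and Rpsa differed at 2 bases and Rpl3-ps1 and Rpl3 at 1, while Ptges3-ps had no difference from Ptges3 over its whole length. Rps15a-ps8 (chr4:53791070-53791456), Rpsa-ps10 (chr3:150072658-150073542), Wsb2-ps (chr11:62750064-62751280) and Rpl21-ps11 (chr3:96666503-96666982) lie on the minus strand. Rplp0-ps1 (chr3:93278141-93279073, plus strand) lies in an intron of Flg, the filaggrin gene. Over all 133 pseudogenes that could be aligned, identity with the parent transcript had a median of 98.4% and ran from 85.6% to 100%. It was 100% over the whole length in 16.

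The pseudogenes were expressed at low levels. Their mean CPM ran from 0.204 to 155 with a median of 1.46, and 93 of them reached 1 CPM and 18 reached 10 CPM. Just inside the limit lay Selenok-ps8 at 0.219, Rps18-ps3 at 0.217 and Rps15a-ps4 at 0.204 CPM, and just outside it Rpl17-ps5 at 0.198, Rpl29-ps2 at 0.197 and Rpl19-ps3 at 0.193 CPM. All 160 were tested, since the same limit on the mean over all libraries served as the filter. Set per kilobase of exon, the level of a pseudogene had a median of 12.7% of its parent's, and in 15 of 135 pairs the pseudogene lay above its parent.

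Most of the calls among the pseudogenes came from the strain comparison, at a share below that of all genes. Of the 160, 46 rose and 20 fell in DBA/2J relative to C57BL/6J at an adjusted p under 0.05 (edgeR quasi-likelihood test, Benjamini-Hochberg over 19526 genes), and 94 were not called. That is 41.25% of them, against 50.1% of all genes tested, 52.4% of protein-coding genes and 37.7% of the other pseudogenes. These shares were not matched for level, and small differences are harder to call in genes with few counts. The rises made up 28.75% of the pseudogenes, against 25.5% of all genes, and the falls 12.5%, against 24.6%. The other pseudogenes had a like split, 26% higher and 11.8% lower.

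Many of the larger differences were those of pseudogenes near 0 in one strain. Called differences of more than 2-fold numbered 22 higher and 4 lower in DBA/2J, or 13.75% and 2.5% of the pseudogenes, where all genes had 2.38% and 2.05%. More than 8-fold were 14 higher and 2 lower, or 8.75% and 1.25%, where all genes had 0.763% and 0.502%. Of the 14 higher, 11 averaged under 0.2 CPM in C57BL/6J, and both lower ones averaged under 0.2 CPM in DBA/2J. Of those over 2-fold, 14 of the 22 higher averaged under 0.2 CPM in C57BL/6J and 3 of the 4 lower in DBA/2J. Such genes passed the limit on the mean through the strain where they were high and had to differ, so nothing is read from these shares beside those of all genes. No library of one strain overlapped the other for 20 pseudogenes that were higher in DBA/2J and 2 that were lower, or 12.5% and 1.25%, where all genes had 2.01% and 1.87%. Of these, 10 of the 20 and both of the 2 averaged under 0.2 CPM in the strain where they were lower. Of the parents, 30 were called higher and 39 lower, none of the 122 tested was over 2-fold higher, and 3 were over 2-fold lower. In the first and second rounds of title numbers, fitted alone, 36 and 39 pseudogenes were called higher, next to 18.2% and 17.4% of all genes in those fits, and 9 and 16 lower, next to 17.6% and 18%. In the 40 libraries with choroid plexus genes under 1000 CPM, 33 were higher, next to 18.8% of all genes, and 12 lower, next to 19.6%.

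**Figure D1:**
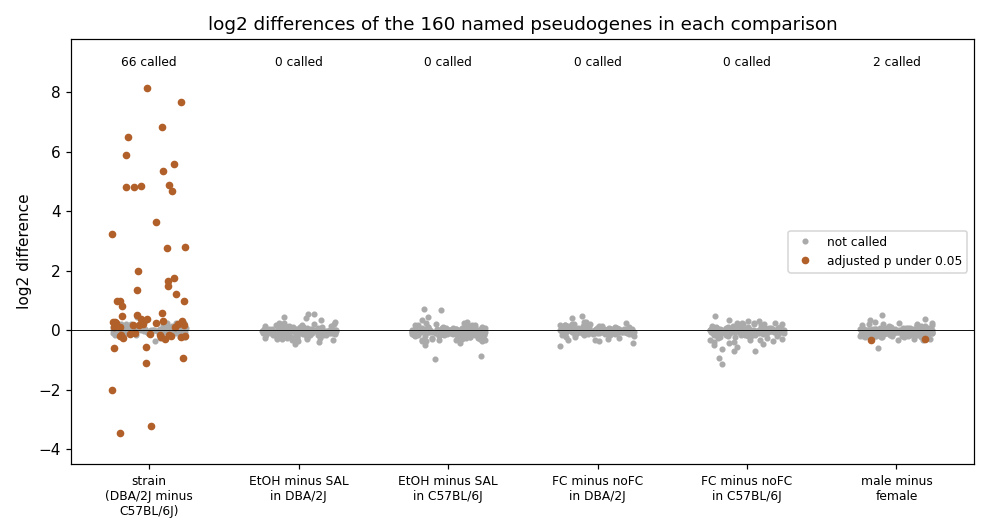
log2 differences (y axis) of the 160 named pseudogenes in each comparison (x axis). Each point is 1 pseudogene, and orange points passed an adjusted p under 0.05. The strain comparison spans -3.45 to 8.13 with 66 called, whereas in the ethanol and conditioning comparisons none was called and in the sex comparison 2 were.

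Among pseudogenes of the small ribosomal subunit, 3 of 16 were higher in DBA/2J and 1 was lower. The counts of this and the following groups stand beside the 25.5% of all genes that were called higher and the 24.6% called lower. Rps15a-ps8, a copy of a small-subunit protein gene, stood at 6.87, 8.75 and 12.6 CPM (lowest, median and highest library) in DBA/2J and at 0, 0 and 0.158 CPM in C57BL/6J. Every DBA/2J library lay above every C57BL/6J library. The log2 difference was 8.13 (SE 0.15, adjusted p = 1.0e-44). Its parent Rps15a lay at 73.6, 82.4 and 113 CPM in DBA/2J and at 101, 114 and 122 CPM in C57BL/6J, with a log2 difference of -0.45 (SE 0.02, adjusted p = 1.4e-22). The strain ranges of the parent overlapped. None of the 75-base windows of Rps15a-ps8 occurs in a transcript of Rps15a or of any other gene.

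In Rpsa-ps10 the gain of the pseudogene was close to the loss of its parent in CPM. Rpsa encodes a small-subunit protein also known as the laminin receptor. The pseudogene stood at 42.6, 47.2 and 60.4 CPM in DBA/2J and at 0.929, 1.65 and 2.45 CPM in C57BL/6J, without overlap, and the log2 difference was 4.88 (SE 0.06, adjusted p = 4.3e-54). Rpsa stood at 69, 74.8 and 96 CPM in DBA/2J and at 105, 118 and 134 CPM in C57BL/6J, likewise without overlap, a log2 difference of -0.66 (SE 0.02, adjusted p = 7.2e-31). The mean of the pseudogene was 45.5 CPM higher and that of the parent 42.5 CPM lower in DBA/2J. Added together in each library, they stood at 114, 122 and 156 CPM in DBA/2J and at 106, 119 and 136 CPM in C57BL/6J. For the sum, the log2 difference was 0.02 (SE 0.02, adjusted p = 0.56). In the transcript counts described below the sum of the pair was called lower, with a log2 difference of -0.32 (adjusted p = 1.3e-17). Of the windows of Rpsa-ps10, 64.6% occur unchanged in Rpsa, and the pair differ at 6 bases over the aligned length.

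**Figure D2:**
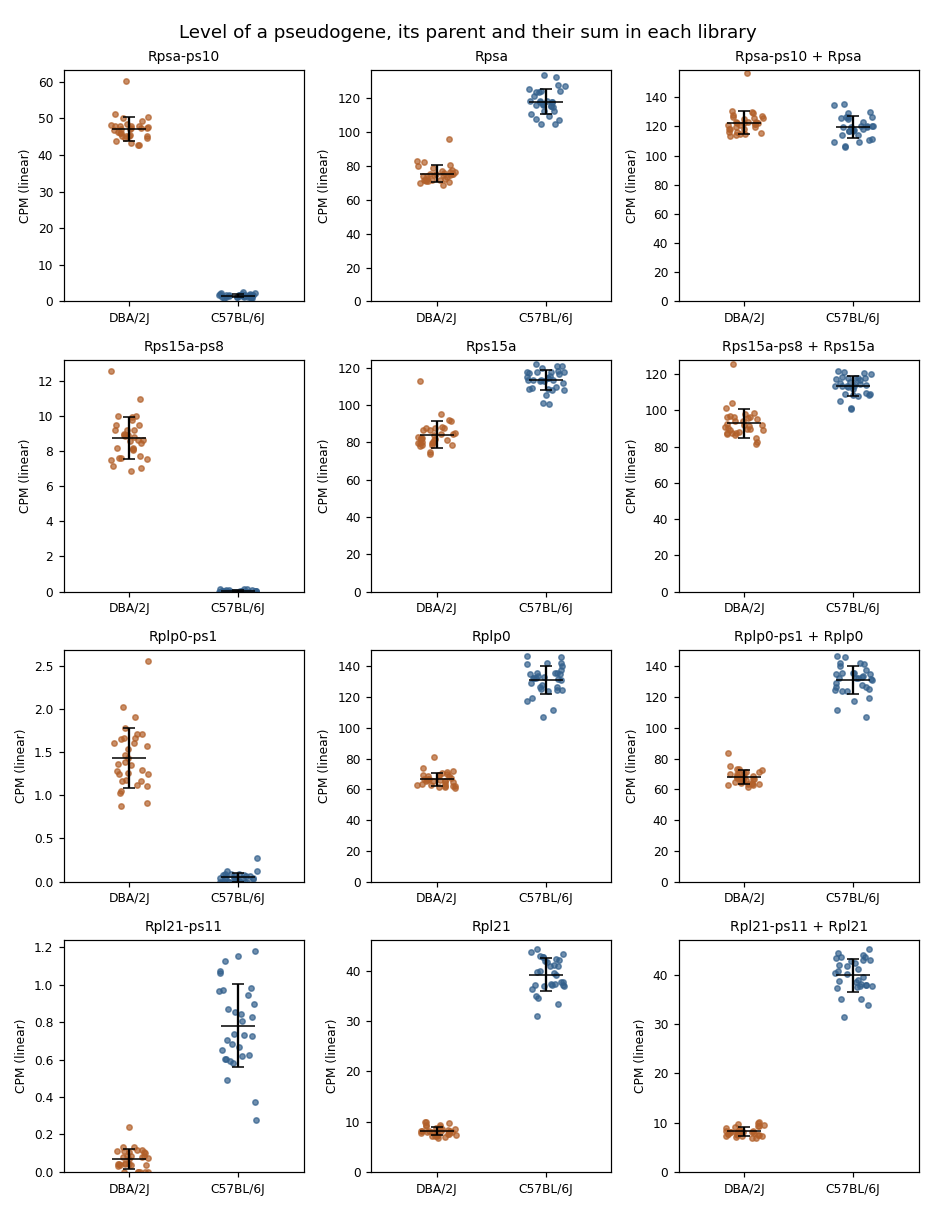
CPM on linear axes (y) in each library by strain (x) for 4 pseudogenes, their parents and the sum of the pair. Points are libraries (32 DBA/2J, 31 C57BL/6J), and bars give mean and SD. Rpsa-ps10 and Rpsa differ in opposite directions while their sum overlaps between strains, whereas the sums of the Rplp0 and Rpl21 pairs stay apart.

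In the large ribosomal subunit, 6 of 20 pseudogenes were higher in DBA/2J by the same test and 2 were lower. Rplp0-ps1 is a copy of the gene for the stalk protein P0. It stood at 0.877, 1.38 and 2.56 CPM in DBA/2J and at 0, 0.0407 and 0.272 CPM in C57BL/6J. The strains did not overlap and differed by 4.81 on the log2 scale (SE 0.17, adjusted p = 6.3e-31). Rplp0 itself stood at 60.8, 66.1 and 81.2 CPM in DBA/2J and at 107, 132 and 146 CPM in C57BL/6J, a log2 difference of -0.99 (SE 0.02, adjusted p = 1.5e-38). Here the pseudogene gained 1.38 CPM and the parent lost 64.4 CPM, so the sum kept a log2 difference of -0.97 (SE 0.02).

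In the gene table both pseudogenes of Rpl21 fell, as did their parent. Rpl21-ps11 stood at 0, 0.0703 and 0.238 CPM in DBA/2J and at 0.276, 0.739 and 1.18 CPM in C57BL/6J, and Rpl21-ps8 at 0, 0.0732 and 0.276 CPM in DBA/2J and at 0.433, 0.738 and 1.44 CPM in C57BL/6J. Neither overlapped between strains. Rpl21-ps8 lies over Mbp, the gene of myelin basic protein and one of the oligodendrocyte genes that were lower in DBA/2J, on the other strand, and the part of Mbp in its counts was not tested. The log2 differences were -3.45 (SE 0.18, adjusted p = 5.1e-24) and -3.21 (SE 0.18, adjusted p = 6.0e-22). Rpl21 stood at 6.8, 7.98 and 9.95 CPM in DBA/2J and at 30.9, 39.5 and 44.2 CPM in C57BL/6J, with no overlap and a log2 difference of -2.29 (SE 0.04, adjusted p = 2.9e-48). In the transcript counts described below neither pseudogene showed a fall that could be tested. Rpl21-ps11 averaged 0.00381 CPM in DBA/2J and 0.00354 CPM in C57BL/6J there, Rpl21-ps8 0.0116 CPM in DBA/2J and 0.0198 CPM in C57BL/6J, and Rpl21 had a log2 difference of -0.92 (SE 0.03). Rpl3-ps1, on chromosome X, went the other way. It stood at 14.6, 18.3 and 24.5 CPM in DBA/2J and at 5.72, 7.75 and 10.5 CPM in C57BL/6J, a log2 difference of 1.23 (SE 0.05, adjusted p = 1.2e-26), while Rpl3 had a log2 difference of -0.19 (SE 0.02).

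Of the pseudogenes of translation factors, 3 of 6 were called, all of them higher in DBA/2J. Eif3e, a subunit of the initiation factor that recruits the small ribosomal subunit, has 3 named copies here, and they did not move alike. Eif3s6-ps4 stood at 0.479, 0.902 and 1.67 CPM in DBA/2J and at 0, 0 and 0.0758 CPM in C57BL/6J, a log2 difference of 5.88 (SE 0.22, adjusted p = 2.8e-29). Eif3s6-ps2 stood at 10.2, 12.5 and 17 CPM in DBA/2J and at 2.3, 3.03 and 3.69 CPM in C57BL/6J, a log2 difference of 2.01 (SE 0.04, adjusted p = 8.5e-42). Neither copy overlapped between strains. Eif3s6-ps1, at medians of 0.46 CPM in DBA/2J and 0.489 CPM in C57BL/6J, was not called (log2 difference -0.13, SE 0.12, adjusted p = 0.38). Eif3e had a log2 difference of -0.37 (SE 0.03), and the parent with its 3 copies of -0.11 (SE 0.03, adjusted p = 0.0014), which was not called in the first round of titles alone (log2 difference -0.073). Eif5al3-ps, a copy related to the factor eIF5A and without a parent of its name, stood at 1.95, 2.81 and 4.19 CPM in DBA/2J and at 0, 0.103 and 0.276 CPM in C57BL/6J, a log2 difference of 4.70 (SE 0.13).

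The other groups by parent were small. Of 6 mitochondrial pseudogenes 1 was called higher and none lower, of 4 of chaperones 1 lower, of 3 of the ubiquitin and proteasome system 2 lower, of 3 of the cytoskeleton 1 lower, of 3 of chromatin none, and of 2 of RNA-binding proteins 1 in each direction. The only pseudogene of glycolysis, Ldha-ps2, was called higher. Mrpl48-ps, a copy of a gene of the mitochondrial ribosome, stood at 3.91, 4.82 and 6.12 CPM in DBA/2J and at 1.75, 2.43 and 3.27 CPM in C57BL/6J, without overlap (log2 difference 0.98, SE 0.05, adjusted p = 3.1e-23). Its parent Mrpl48 went down, with a log2 difference of -0.71 (SE 0.02). Psmb6-ps2, a copy of a proteasome subunit gene, stood at 0, 0.141 and 0.338 CPM in DBA/2J and at 0.256, 0.512 and 0.958 CPM in C57BL/6J, with overlapping ranges (log2 difference -1.99, SE 0.19, adjusted p = 1.2e-13), and Psmb6 had a log2 difference of -0.21 (SE 0.02).

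The 96 remaining pseudogenes, of parents with many roles, held 31 called higher and 12 lower. Usf2-ps1 lies over Gm44662 on the other strand and is an unprocessed copy of the gene for the E-box transcription factor USF2. It stood at 3.77, 5.13 and 6.64 CPM in DBA/2J and at 0, 0.0271 and 0.079 CPM in C57BL/6J (log2 difference 7.69, SE 0.13, adjusted p = 1.5e-45). Wsb2-ps, of a WD-repeat and SOCS-box protein, stood at 6.16, 7.56 and 9.47 CPM in DBA/2J and at 0, 0.0684 and 0.216 CPM in C57BL/6J (log2 difference 6.49, SE 0.12, adjusted p = 4.9e-45). In neither did the strains overlap. Wsb2-ps lies over Gm27194 on the other strand. Wsb2 itself had a log2 difference of -0.25 (SE 0.02), and Usf2 of 0.13 (SE 0.02).

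Stk19-ps1 on chromosome 17 stood at 0.338, 0.985 and 2.15 CPM in DBA/2J and at 0, 0 and 0.158 CPM in C57BL/6J (log2 difference 5.59, SE 0.24, adjusted p = 3.2e-26), and Stk19 was not called (log2 difference -0.02, SE 0.02, adjusted p = 0.41). Rbpj-ps3, a copy of the gene for the DNA-binding partner of Notch, stood at 1.79, 2.41 and 2.85 CPM in DBA/2J and at 0.403, 0.686 and 1.18 CPM in C57BL/6J (log2 difference 1.65, SE 0.07, adjusted p = 8.1e-27), against -0.72 (SE 0.03) for Rbpj. It lies over Cntnap2 on the other strand. Nudc-ps1, of a gene of dynein-dependent nuclear movement, stood at 12.8, 14 and 17.2 CPM in DBA/2J and at 4.42, 5.5 and 6.86 CPM in C57BL/6J (log2 difference 1.35, SE 0.03, adjusted p = 7.4e-39). The strains did not overlap in any of these 3 pseudogenes. Nudc was also called higher, with a log2 difference of 0.06 (SE 0.02, adjusted p = 0.0068). Within the rounds of titles its differences were 0.068 and 0.059, neither of them called. In the transcript counts described below, Nudc had a log2 difference of 0.36 by the same test (SE 0.02, adjusted p = 3.0e-22). Ccdc50-ps, at 0.263, 0.5 and 0.742 CPM in DBA/2J and at 0, 0.0698 and 0.389 CPM in C57BL/6J, overlapped between strains and had a log2 difference of 2.81 (SE 0.21, adjusted p = 4.5e-17).

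Of the 25 pseudogenes without a parent, 10 were called higher and 3 lower. H2-Ea-ps is listed as a polymorphic pseudogene and encodes the alpha chain of the class II molecule H2-E, which mice of the H2-b haplotype, such as C57BL/6J, are known to lack. It had 477 counts over the 32 DBA/2J libraries (0.0716, 0.459 and 1.62 CPM) and none in the 31 C57BL/6J libraries, so its level was at least 160-fold higher in DBA/2J, taking 3 counts over the C57BL/6J libraries as the floor (adjusted p = 3.4e-12). Tmem181c-ps, on the same chromosome 17, stood at 11.8, 16.2 and 20.4 CPM in DBA/2J and at 0.0469, 0.281 and 1.16 CPM in C57BL/6J (log2 difference 5.35, SE 0.13, adjusted p = 3.8e-38). Tdpx-ps1 stood at 7.03, 8.57 and 10.3 CPM in DBA/2J and at 0.0393, 0.281 and 0.664 CPM in C57BL/6J (log2 difference 4.85, SE 0.10, adjusted p = 1.1e-41). None of these 3 overlapped between strains. Tdpx-ps1 lies over Cntnap5b on the other strand, and whether the counting used strand is not given in the sources used here, so reads of such a pair cannot be told apart. A gene on the other strand was annotated over 35 of the 160.

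Called falls included members with and without a parent. Cdk3-ps, the polymorphic pseudogene of a cyclin-dependent kinase, stood at 0.561, 1.02 and 1.55 CPM in DBA/2J and at 1.05, 1.51 and 2.05 CPM in C57BL/6J (log2 difference -0.58, SE 0.07, adjusted p = 1.7e-09). Znf41-ps, of a zinc finger gene, stood at 0.0418, 0.232 and 0.552 CPM in DBA/2J and at 0.141, 0.503 and 1.08 CPM in C57BL/6J (log2 difference -1.10, SE 0.16, adjusted p = 7.6e-08). Ube2d-ps stood at 16.1, 17.6 and 20.1 CPM in DBA/2J and at 16.3, 18.5 and 21.5 CPM in C57BL/6J (log2 difference -0.10, SE 0.03, adjusted p = 0.0012). All 3 overlapped between strains, and Ube2d-ps was not called in the first round of titles alone (log2 difference -0.088). Lgals1-ps2, of the lectin gene Lgals1, also fell, with medians of 0.143 CPM in DBA/2J and 0.316 CPM in C57BL/6J (log2 difference -0.93, SE 0.17, adjusted p = 7.7e-06), but it shares exons with Gm49486 on its own strand. Spcs2-ps, of a signal peptidase subunit, fell by 0.19 on the log2 scale (SE 0.05, adjusted p = 0.00041), with medians of 3.83 CPM in DBA/2J and 4.28 CPM in C57BL/6J, and Spcs2 by 0.27 (SE 0.02). In the second round alone Spcs2-ps was not called (log2 difference -0.10).

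Set beside their parents, some pseudogenes went the same way and others the opposite way. In 42 of the 134 pairs with a tested parent both genes were called, 25 in the same direction and 17 in opposite directions. Of the opposite pairs, 16 had a higher pseudogene and a lower parent in DBA/2J and 1, Rps19-ps3 with Rps19, the reverse. In 14 pairs both were higher and in 11 both lower. The pseudogene alone was called in 10 pairs, the parent alone in 37 and neither in 45. A call also depends on the standard error, which had a median of 0.09 for the pseudogenes. These counts therefore do not show how alike the 2 differences of a pair were. Across the 134 pairs, Pearson's r between the log2 differences was 0.05, a description over genes that share libraries and, for some, a parent. It was -0.003 in the 116 pairs whose pseudogene differed by less than 2-fold. Large differences of single genes, parents included, weigh heavily in such an r. The 16 pairs with a higher pseudogene and a lower parent included Tma7-ps (log2 differences 1.50 and, for Tma7, -0.54), Npm3-ps1 (2.79 and, for Npm3, -0.18), Tcea1-ps1 (0.18 and, for Tcea1, -0.71), Mpc1-ps (0.10 and, for Mpc1, -0.35), Ifi203-ps (0.24 and, for Ifi203, -1.76) and Dynlt1-ps1 (0.39 and, for Dynlt1a, -1.38). In the transcript counts described below Tma7 (log2 difference -0.05, adjusted p = 0.064) and Npm3 (-0.02, adjusted p = 0.67) were not called, Dynlt1a had -0.22 and Tcea1 -0.24, and Ifi203-ps was not called (0.12, adjusted p = 0.38). Tma7-ps (means 0.0156 CPM in DBA/2J and 0 in C57BL/6J) and Npm3-ps1 (0.0333 and 0.0184 CPM) lay under the limit there. Dynlt1-ps1 was at 0 in every library there, while Mpc1-ps (log2 difference 1.12) and Tcea1-ps1 (9.14) were called higher.

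**Figure D3:**
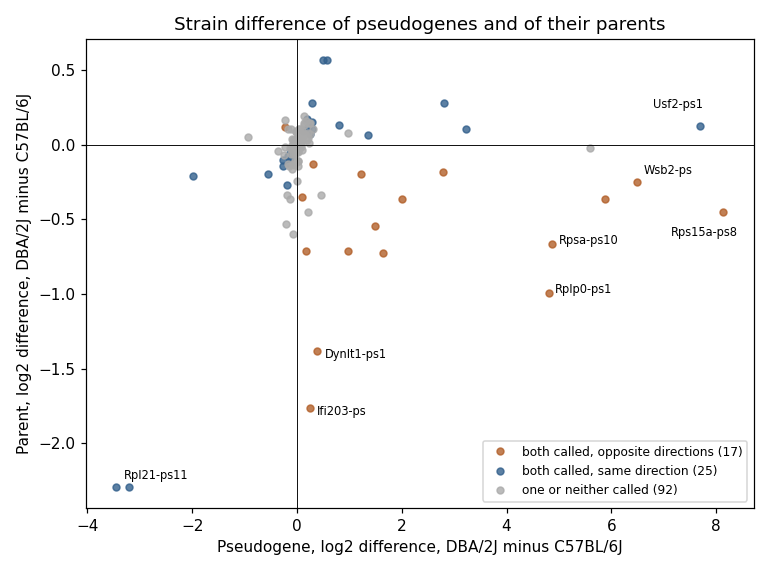
log2 strain difference of the parent (y axis) against that of the pseudogene (x axis), both DBA/2J minus C57BL/6J, for the 134 pairs with a tested parent. Orange points are the 17 pairs called in opposite directions, blue points the 25 called in the same direction. Differences of pseudogenes reach 8.13 while those of parents lie between -2.29 and 0.57.

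Counts of each parent and its named pseudogenes were then added and the table was fitted again. Such a sum does not depend on which of them a counted read was given to. Reads left out of the counts or given to other genes are not in it. Of 123 families 32 rose and 40 fell in DBA/2J, next to 50.1% of all rows called. For the 16 pairs with a higher pseudogene and a lower parent, the family was called lower in 14 and not called in 2, the families of Rpsa and Npm3. A sum must lie between its parts, so the shift towards 0 is no result, but its size differed. The family difference was -0.31 (SE 0.02) for Rps15a, against -0.45 for Rps15a alone, -0.56 (SE 0.02) for Mrpl48, against -0.71, and -0.52 (SE 0.03) for Rbpj, against -0.72. In 15 of the 16 pairs the CPM gained by the pseudogene was smaller than the CPM lost by the parent, Rpsa-ps10 being the exception. Copies of these parents with other kinds of names are not in the sums.

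The pseudogenes were also grouped by likeness to other genes. Each pseudogene was cut into all its 75-base windows, and those present unchanged in a transcript of another gene were counted. Of 17 pseudogenes with every window shared, 3 were called higher, 2 lower and none over 2-fold. Of 46 with 50% or more but not all shared, 11 were higher, 6 lower and 9 over 2-fold. Of 76 with some but under 50% shared, 27 were higher, 8 lower and 14 over 2-fold, and of 21 with no window shared, 5 were higher, 4 lower and 3 over 2-fold. Of all genes tested, 25.5% were called higher and 24.6% lower, and 2.38% and 2.05% were called and over 2-fold. Many of the pseudogenes over 2-fold averaged under 0.2 CPM in the other strain, as given above. They passed the limit through the strain where they were high, so nothing is read from the 2-fold counts of these classes. Ptges3-ps, identical to Ptges3 in the lines above, stood at 11.2, 13.5 and 16.8 CPM in DBA/2J and at 12.6, 14.2 and 16.6 CPM in C57BL/6J. The ranges overlapped and the log2 difference was -0.11 (SE 0.04, adjusted p = 0.011). Dynlt1-ps1, identical to Dynlt1a, had medians of 1.1 CPM in DBA/2J and 0.872 CPM in C57BL/6J, while Dynlt1a had 0.956 CPM in DBA/2J and 2.67 CPM in C57BL/6J. The split of reads within such identical pairs is uncertain. These counts per 75-base window are descriptions of the C57BL/6J sequence, and the part of read placement in the strain differences was not tested.

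By gene type, 32 of 123 processed pseudogenes were called higher and 14 lower. Of 12 unprocessed ones 6 were higher and 2 lower, and of 11 transcribed unprocessed ones 4 higher and 2 lower. All 3 polymorphic pseudogenes were called, 2 higher and 1 lower, as were 2 of 3 transcribed unitary ones, both higher. Of 8 transcribed processed pseudogenes 1 was lower. On chromosome X, 2 of 8 were higher and 1 lower. Of all genes tested, 25.5% were called higher and 24.6% lower, and of the other pseudogenes 26% and 11.8%.

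The authors' second table, estimated counts per transcript, gives another account of the same libraries. All 160 pseudogenes have transcripts in it, but summed per gene 112 of them lay under 0.2 CPM there and 74 under 0.01 CPM. Of the 48 that passed the limit, 27 rose and 6 fell in DBA/2J, with 51.9% of all genes called in that table. In 28 both tables gave a call, and in all 28 the direction was the same. The gene table alone called 3, the transcript table alone 5, and neither called 12. Of the 112 tested in the gene table only, 35 were called there, where 50.1% of all genes tested were called. Among them, Usf2-ps1 averaged 0.00582 CPM in the transcript table in DBA/2J and was at 0 in every C57BL/6J library, Nudc-ps1 was at 0 in every library, and Tdpx-ps1 averaged 0.00334 CPM in DBA/2J and 0.0048 CPM in C57BL/6J. Psmb6-ps2 was at 0 in every library as well, and Wsb2-ps averaged 0.141 CPM in DBA/2J and 0.00879 CPM in C57BL/6J.

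Of the 31 pseudogenes called in the gene table and tested in both, 22 had a larger and 9 a smaller log2 difference in the transcript table. Of the 69 parents called in the gene table, 28 had a larger and 41 a smaller one there, and 63 were still called. Tmem181c-ps had a log2 difference of 2.89 (SE 0.08) in the transcript table, against 5.35 in the gene table, with means of 18.9 CPM in DBA/2J and 2.53 CPM in C57BL/6J. Stk19-ps1 averaged 0.0107 CPM in DBA/2J and 0.0115 CPM in C57BL/6J there. Among parents, Rbpj had a log2 difference of -0.27 (SE 0.02), Rps15a of -0.17 (SE 0.03) and Wsb2 of -0.11 (SE 0.02) in the transcript table, each smaller in size than in the gene table. Other pairs lay farther apart there. Rpsa-ps10 stood at 149, 166 and 214 CPM in DBA/2J and at 0, 0.696 and 5.17 CPM in C57BL/6J there (log2 difference 7.60, SE 0.20), and Rpsa had a log2 difference of -1.62 (SE 0.02). Eif3s6-ps2 averaged 9.09 CPM in DBA/2J and 0.0279 CPM in C57BL/6J, Mrpl48-ps 3.86 CPM in DBA/2J and 0.00811 CPM in C57BL/6J, and Rpl3-ps1 224 CPM in DBA/2J and 0.3 CPM in C57BL/6J. Of the 48, Glns-ps1 had the widest gap between the tables. It is a copy of the gene for glutamine synthetase (Glul), which makes glutamine from glutamate, in the brain mostly in astrocytes. In the gene table Glns-ps1 stood at 37.2, 44.9 and 55.7 CPM in DBA/2J and at 38.8, 45.9 and 55.7 CPM in C57BL/6J, overlapping and not called (log2 difference -0.07, SE 0.03, adjusted p = 0.060), although the second round of titles alone called it lower (log2 difference -0.093). In the transcript table it stood at 25.2, 32.2 and 39.4 CPM in DBA/2J and at 0, 0 and 0.334 CPM in C57BL/6J (log2 difference 10.15, SE 0.12, adjusted p = 8.3e-52). Glul was lower in DBA/2J in both, at -0.59 (SE 0.03) in the gene table and -0.56 (SE 0.03) in the transcript table. Rpl14-ps1 likewise averaged 33 CPM in DBA/2J and 30.2 CPM in C57BL/6J in the gene table, and 1.51 CPM in DBA/2J and 0.00644 CPM in C57BL/6J in the transcript table. In the gene table it was not called in the second round of titles alone (log2 difference 0.028). It lies over Trpm4 on the other strand.

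**Figure D4:**
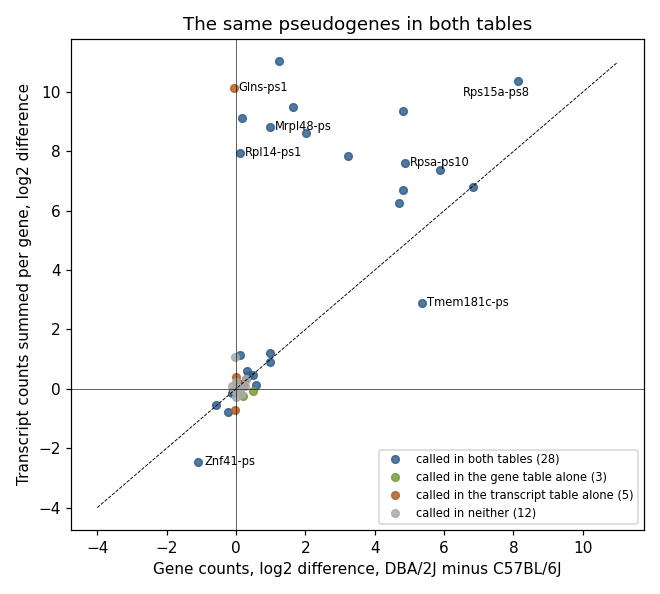
log2 strain difference (DBA/2J minus C57BL/6J) in the transcript counts summed per gene (y axis) against that in the gene counts (x axis) for the 48 pseudogenes tested in both tables. The dashed line marks equal values. Glns-ps1 lies at -0.07 in the gene counts and at 10.15 in the transcript counts, and the 28 pseudogenes called in both tables (blue) have the same sign in each.

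Ethanol and conditioning moved no pseudogene past the threshold. In DBA/2J, 0 of 160 were called for EtOH against SAL (8 at an unadjusted p under 0.05, where 8.48% of all genes lay), while 0.307% of all genes were called. In C57BL/6J, 0 were called (8 unadjusted, where 4.2% of all genes lay), and 0.0922% of all genes were. For FC against noFC, 0 were called in DBA/2J (4 unadjusted, against 3.36% of all genes) and 0 in C57BL/6J (4 unadjusted, against 3.99% of all genes), with 0% of all genes called in either strain. DESeq2 called 0 in each of these comparisons as well, and no parent was called. The log2 differences ran from -0.44 to 0.55 for ethanol in DBA/2J, from -0.97 to 0.73 for ethanol in C57BL/6J, from -0.52 to 0.47 for conditioning in DBA/2J and from -1.13 to 0.49 for conditioning in C57BL/6J. The median standard errors were 0.12, 0.13, 0.12 and 0.13.

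The smallest adjusted p of these comparisons was that of Tsg101-ps, a copy of a gene of the endosomal sorting machinery. It stood at 0.0813, 0.205 and 0.591 CPM in C57BL/6J given EtOH and at 0.224, 0.434 and 0.668 CPM in C57BL/6J given SAL. The groups overlapped, and the log2 difference was -0.97 (SE 0.26, adjusted p = 0.24). In DBA/2J, Tsg101-ps stood at 0.0594, 0.355 and 1.03 CPM after EtOH and at 0.0729, 0.281 and 0.585 CPM after SAL, and the difference of the ethanol effects between strains was 1.16 (SE 0.36, adjusted p = 1.0). Slc2a4rg-ps, a unitary pseudogene, stood at 10.3, 12.6 and 17.7 CPM after EtOH and at 12.7, 14.3 and 18 CPM after SAL in DBA/2J (log2 difference -0.16, SE 0.06, adjusted p = 0.33). Eif4a-ps4 stood at 11.4, 13.4 and 16.1 CPM after EtOH and at 12.7, 14.6 and 16.9 CPM after SAL in DBA/2J (log2 difference -0.12, SE 0.05, adjusted p = 0.39). Neither passed the test, and the ranges overlapped. Tubb4b-ps1, of a tubulin gene, stood at 0.552, 0.96 and 1.44 CPM after EtOH and at 0.606, 1.23 and 1.6 CPM after SAL in C57BL/6J (log2 difference -0.35, SE 0.14, adjusted p = 1.0). For Dnajc19-ps the ethanol effect differed between strains by -0.25 (SE 0.10, adjusted p = 1.0), with medians of 2.44 CPM after EtOH and 2.55 CPM after SAL in DBA/2J, and of 3.03 CPM after EtOH and 2.66 CPM after SAL in C57BL/6J. Choroid plexus genes had a median of 436 CPM after EtOH and 112 CPM after SAL in DBA/2J, and 125 CPM after EtOH and 118 CPM after SAL in C57BL/6J, and their part in these values was not tested.

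For conditioning, Itpa-ps1, in an intron of Ttc17, stood at 0.328, 0.52 and 0.982 CPM in DBA/2J with FC and at 0.273, 0.448 and 0.61 CPM with noFC (log2 difference 0.42, SE 0.16, adjusted p = 1.0). In C57BL/6J its log2 difference was -0.20 (SE 0.16), and the difference between strains was 0.62 (SE 0.23, adjusted p = 1.0). Rps15a-ps4 stood at 0, 0.156 and 0.212 CPM in C57BL/6J with FC and at 0.0733, 0.239 and 0.451 CPM with noFC (log2 difference -0.69, SE 0.24, adjusted p = 1.0). Both overlapped between conditions. Stk19-ps1 stood at 0.338, 0.851 and 1.58 CPM in DBA/2J with FC and at 0.598, 1.12 and 2.15 CPM with noFC (log2 difference -0.44, SE 0.18, adjusted p = 1.0), and Rps27a-ps2 at 0.349, 0.474 and 1.17 CPM in C57BL/6J with FC and at 0.316, 0.689 and 1.72 CPM with noFC (log2 difference -0.42, SE 0.17, adjusted p = 1.0). For Tubb4b-ps2 the conditioning effect differed between strains by 0.32 (SE 0.13, adjusted p = 1.0), with medians of 1.81 CPM with FC and 1.71 CPM with noFC in DBA/2J, and of 1.61 CPM with FC and 1.9 CPM with noFC in C57BL/6J. Tests of whether the ethanol or the conditioning effect differed between strains called 0 of 160 each (7 and 3 at an unadjusted p under 0.05, against 3.57% and 3.69% of all genes), where 0.0102% and 0% of all genes were called. Conditioning coincides with the letter of the title in both rounds of title numbers, so that conditioning and what the letter marks cannot be told apart. Drug coincides with the letter within a round but in opposite ways in the rounds, and is balanced over the letters in all.

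Sex gave the other pair of calls. Pisd-ps1 and Pisd-ps2, unprocessed and transcribed copies of the gene for phosphatidylserine decarboxylase, the mitochondrial enzyme that makes phosphatidylethanolamine, were both called lower in males, as 0.2% of all genes were called in either direction. Pisd-ps1 has the highest mean of the 160. It stood at 62.2, 136 and 198 CPM in males and at 107, 171 and 243 CPM in females (log2 difference -0.34, SE 0.06, adjusted p = 0.00084). Within DBA/2J it averaged 159 ± 20.5 CPM in males and 203 ± 26.9 CPM in females (SD, n = 16 each), and within C57BL/6J 113 ± 24.6 CPM in males (SD, n = 15) and 141 ± 21.6 CPM in females (SD, n = 16). Pisd-ps2 stood at 13.8, 24 and 35.6 CPM in males and at 18.4, 29.6 and 45.1 CPM in females (log2 difference -0.27, SE 0.05, adjusted p = 0.0029). The sexes overlapped in both, within each strain too.

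The parent moved in the same direction. Pisd stood at 65.5, 95.6 and 125 CPM in males and at 71.8, 103 and 141 CPM in females (log2 difference -0.19, SE 0.03, adjusted p = 6.4e-05), the only parent called for sex. All 3 were also higher in DBA/2J. Pisd-ps1 stood at 129, 181 and 243 CPM in DBA/2J and at 62.2, 129 and 182 CPM in C57BL/6J (log2 difference 0.49, SE 0.06, adjusted p = 8.1e-10). Pisd-ps2 had a log2 strain difference of 0.57 (SE 0.05, adjusted p = 1.4e-13) and Pisd of 0.57 (SE 0.03, adjusted p = 1.3e-23). In the transcript table Pisd-ps1 averaged 20.7 CPM in DBA/2J and 21.3 CPM in C57BL/6J, and neither its strain difference (log2 -0.06, SE 0.06, adjusted p = 0.42) nor its sex difference (log2 -0.24, adjusted p = 0.065) was called, nor was the sex difference of Pisd-ps2 there (log2 -0.13, adjusted p = 0.36). The strain differences of Pisd-ps2 (log2 0.12, SE 0.04) and Pisd (log2 0.16, SE 0.02) were called there but were smaller than in the gene table. Of the windows of Pisd-ps1, 2.6% occur in Pisd. Choroid plexus genes had a median of 155 CPM in males and 120 CPM in females. In the 40 libraries with less of them Pisd-ps2 was no longer called for sex (log2 difference -0.25, adjusted p = 0.24).

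**Figure D5:**
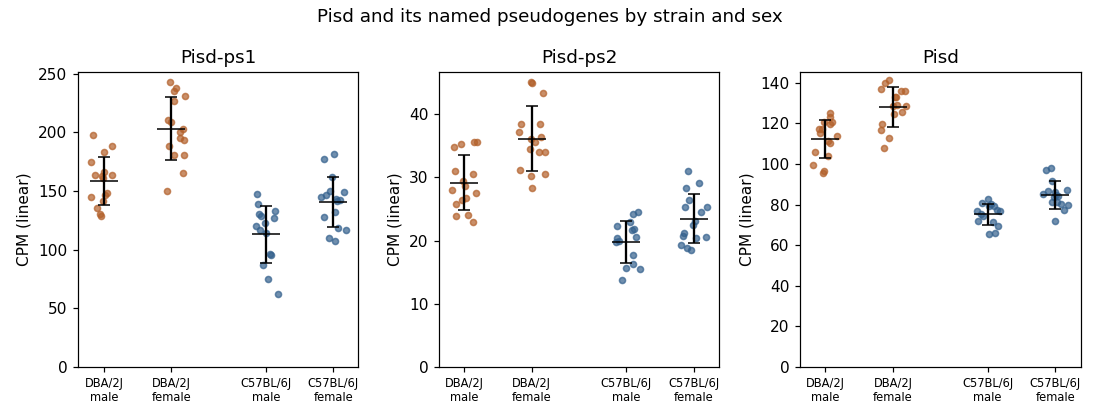
CPM on linear axes (y) of Pisd-ps1, Pisd-ps2 and Pisd in each library by strain and sex (x). Points are libraries, and bars give mean and SD. In each strain the male mean lies below the female mean for all 3 genes, with overlapping libraries, and both sexes of DBA/2J have higher means than those of C57BL/6J.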

How the data were processed

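RNA of dorsal hippocampus was sequenced as stranded mRNA libraries with 75-nt single reads, per the labels. The authors deposited raw, whole-number read counts per gene. They also deposited estimated counts per transcript, which need not be whole. The tools named, with GRCm38 and without versions, are Salmon, featureCounts, HISAT2, fastp and DESeq2, per the submitters' processing notes. Names, types and positions came from GENCODE M21, in which 55141 of the 55401 genes were found by identifier. Estimated counts were summed per gene and rounded. Of their values, 46.8% were not whole.

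CPM are counts divided by the library total and multiplied by 1e+06. Genes with a mean of at least 0.2 CPM over all 63 libraries (19526) were tested with edgeR 4.0.16 in R 4.3.3 (TMM, quasi-likelihood, 1 coefficient for each of 16 groups, two-sided), adjusted by Benjamini and Hochberg over all of them and called at 0.05. Differences are DBA/2J minus C57BL/6J, EtOH minus SAL, FC minus noFC and male minus female. Counts of 19526 genes were simulated with 200 of them changed. The strain test recovered 33, 47, 50 and 50 of 50 genes changed by 0.25, 0.5, 1 and 2 on the log2 scale, with 12 false calls among the unchanged genes. The changed genes were drawn from all genes tested, so this recovery is not that of the pseudogenes with their low counts. Identity was measured with blastn 2.17.0 on transcript sequences. Intervals and floors cover counting error only.

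Pseudogenes were named by a fixed rule: the 8 smallest p and the 5 largest differences called per direction for strain, the 5 opposite and 5 same-direction pairs with the smallest p, members called (or the 2 smallest p) in other contrasts, the 3 highest means, the 3 on each side of the limit, and families of 3 or more. Others named (Rpl3-ps1, Ptges3-ps, Eif5al3-ps, Ldha-ps2, Rps19-ps3, Tma7-ps, Npm3-ps1, Tcea1-ps1, Mpc1-ps, Ifi203-ps, Dynlt1-ps1) were chosen after their values were seen. The members, lists and rules were chosen with earlier results of these data known. Alternatives were other scaling, filters, DESeq2 1.42.0, transcript sums, title rounds, saline libraries without conditioning, a replicate block and each library left out in turn. A fit without libraries rich in choroid plexus genes, and the rounds for family sums, were added after seeing the data.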

Additional observations from a re-analysis of the deposited data

How the results depend on the processing

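RLE scaling, filterByExpr, no filter and DESeq2 left every count of calls within 1.5 times. Gene sums of the transcript counts gave 27 pseudogenes higher and 6 lower in DBA/2J, where 48 were tested, and 0 called for sex, where both Pisd pseudogenes were tested and the cause was not tested. The first round of titles alone gave 9 lower, and saline libraries without conditioning, with fewer samples, gave 5 pseudogenes lower, 13 parents higher and 25 lower. Libraries low in choroid plexus genes, 18 of DBA/2J and 22 of C57BL/6J, gave 12 pseudogenes lower, 16 parents higher, 47 families called (main 72) and 1 pseudogene called for sex. Leaving out each library in turn gave 43 to 48 pseudogenes higher and 18 to 21 lower, 28 to 31 parents higher and 37 to 42 lower, 69 to 75 families, 2 to 3 pseudogenes for sex and 0 to 0 for ethanol, for conditioning and for their differences by strain. Among the genes and families named by the rule, signs reversed in the transcript sums for Glns-ps1 (10.15), Pisd-ps1 (-0.058), Rpl14 (0.10) and the families of Rpl14 (0.11) and Rpsa (-0.32). Each was called in the main fit or in the sums, and the cause was not tested. Small strain differences that were not called also changed sign when single libraries were left out. Examples are Itpa-ps1 (-0.053 to 0.038), Tsg101-ps (-0.071 to 0.086) and the family of Rpl14 (-0.011 to 0.0057). Over all genes tested in both tables, the sign differed for 8 of 48 pseudogenes, 2 of them called in the gene counts (Pisd-ps1 and Rpl10a-ps1), and for 12 of 122 parents, 2 of them called (Rab11b and Rnf170). A fit with the title number as a replicate block called 0 pseudogenes in each ethanol and conditioning comparison and in their differences by strain. Over 93 pairs of libraries with the same number, residuals correlated between -0.53 and 0.48 (median 0.04), and 32 pairs lay over 0.1. Over 279 pairs with different numbers, of the same strain and sex, they correlated between -0.56 and 0.59 (median -0.01), and 74 lay over 0.1. Of the 63 libraries, 28 correlated best with those of their own number. These values do not settle whether the number pairs the libraries. Depth limits the lowest pseudogenes, where 0.2 CPM is a handful of reads.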
